A study of Mus musculus with 7 samples.

Results

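The miR-181 family of the mouse kidney was described here through its 4 guide arms, miR-181a, miR-181b, miR-181c and miR-181d (mmu-miR-181a, mmu-miR-181b, mmu-miR-181c and mmu-miR-181d on the array), out of 611 mouse microRNAs. They were selected by name alone, as the features whose systematic name is one of these 4, and the other arms of miR-181 precursors on the array were followed beside them. All 4 could be measured and tested, among 213 microRNAs tested in all. Whole kidneys came from 3 homozygous megabladder males (mgb-/-, mice 2, 3 and 4) and 4 wild-type males (mgb+/+, mice 1 to 4), with 1 single-colour Agilent array per mouse. Both genotypes were sampled at 3.5 to 4 weeks of age, and the labels name no treatment and no further allele. Megabladder mice lack normal bladder smooth muscle, so that urine backs up and the kidney dilates. The mutation is present in every cell of the animal and the organ was ground whole, so the arrays do not say which kidney cells held the microRNAs. The design text counts 4 mutant kidneys, of which megabladder mouse 1 was not analysed here.

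A microRNA silences messenger RNAs by base pairing, mainly through its seed, the bases 2 to 8 from the 5′ end, so microRNAs with the same seed share many targets. The guide arm of a precursor hairpin is the strand kept by the silencing complex, and the passenger arm is usually degraded. The miR-181 family is best known from thymus and lymphocytes, where miR-181a sets the sensitivity of the T cell receptor, from endothelium, where miR-181b restrains inflammatory signalling, and from brain. It is also expressed in many other tissues, and guide arms from several genomic copies add up to 1 mature pool.

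The mature sequences show how alike the members are, which limits how well probes can tell them apart. They are given 5′ to 3′ from RefSeq (GRCm38.p6) with the seed in capitals.
miR-181a: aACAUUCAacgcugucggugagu
miR-181c: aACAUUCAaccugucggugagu
miR-181b: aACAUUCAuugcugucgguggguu
miR-181d: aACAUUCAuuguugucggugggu
All 4 members carried the seed ACAUUCA, and no other of the 1679 mature mouse names in the RefSeq table did. With positions counted from 1 at the 5′ end of the first-named member, miR-181c was miR-181a without the base at position 11 (edit distance 1). miR-181d differed from miR-181b by C12U and by 1 base fewer at the 3′ end (edit distance 2). miR-181b differed from miR-181a by A9U, C10U, A21G and 1 added base (edit distance 4). The members thus formed 2 close pairs, miR-181a with miR-181c and miR-181b with miR-181d, while miR-181c stood at an edit distance of 5 from both miR-181b and miR-181d.

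The genomic pairs were different ones. In GRCm38.p6 the family had 6 precursor genes on 3 chromosomes. Mir181a-1 (chr1:137966455-137966541) and Mir181b-1 (chr1:137966639-137966718) lay 97 bases apart, with no other annotated gene over them. Mir181a-2 (chr2:38852735-38852810) and Mir181b-2 (chr2:38853830-38853918) lay 1019 bases apart, inside the span of Nr6a1, a protein-coding gene for a nuclear receptor, and of its antisense RNA Nr6a1os. Mir181d (chr8:84178716-84178787) and Mir181c (chr8:84178873-84178961) lay 85 bases apart. Because both copies of miR-181a, and both copies of miR-181b, give the same mature sequence, the arrays cannot say which chromosome contributed. These coordinates belong to the RefSeq annotation, whereas the array design was annotated on another mouse build.

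Each array found 196 to 210 microRNAs above background in megabladder kidneys and 190 to 206 in wild-type kidneys. Scaling factors, the 75th percentile of the probes detected on all 7 arrays, were 223.5 to 333.4 scanner units on megabladder arrays and 348.1 to 495.8 units on wild-type arrays. On the log2 scale the megabladder minus wild-type difference in scaling factor was -0.61, without overlap, and its exact permutation p (2-sided) of 0.0286 is the lowest possible with 35 splits. Every array came from 1 slide and 1 scan, but megabladder and wild-type arrays sat in separate rows of it, so the effects of row and of genotype cannot be told apart. Wild-type mice 3 and 4 stood apart from all other arrays. Their scores on the first principal component (70.8% of the variance) were 7.22 and 6.92. Scores were -4.10 to -3.58 in megabladder mice and -1.85 and -0.99 in wild-type mice 1 and 2. Genotype differences and ratios between members were therefore also compared without wild-type mice 3 and 4. Likeness of profiles and the marker lists were examined on all 7 arrays only. The tissue label fitted the markers: 8 of 8 kidney tubule microRNAs were above background on every array. Of 4 microRNAs in each of the lists for neurons, for striated muscle, and for liver and pancreas, 2 were above background on no array (miR-124 and miR-9, miR-133a and miR-206, miR-216a and miR-217). The other 2 of each list were above background on at least 1 array, and 1 neuronal microRNA on all 7.

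Detection of the guide arms was nearly complete, and that of the passenger arms was nil. Each member had 2 probes of 10 spots, and 7 of these 8 probes were well above background on all 7 arrays. The exception was the dimmer probe of miR-181d, which passed that detection test on no array, so the level of miR-181d rests on 1 probe. The array carried probes for miR-181a-1* and miR-181a-2*, the passenger arms of both miR-181a precursors, shown because they share neither the seed nor the signal of the guide.
miR-181a-1*: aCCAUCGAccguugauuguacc
miR-181a-2*: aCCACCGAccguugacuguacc
On no array was any of their 6 probes well above background. The array carried no probe named for a passenger arm of miR-181b, miR-181c or miR-181d.

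**Figure D1:**
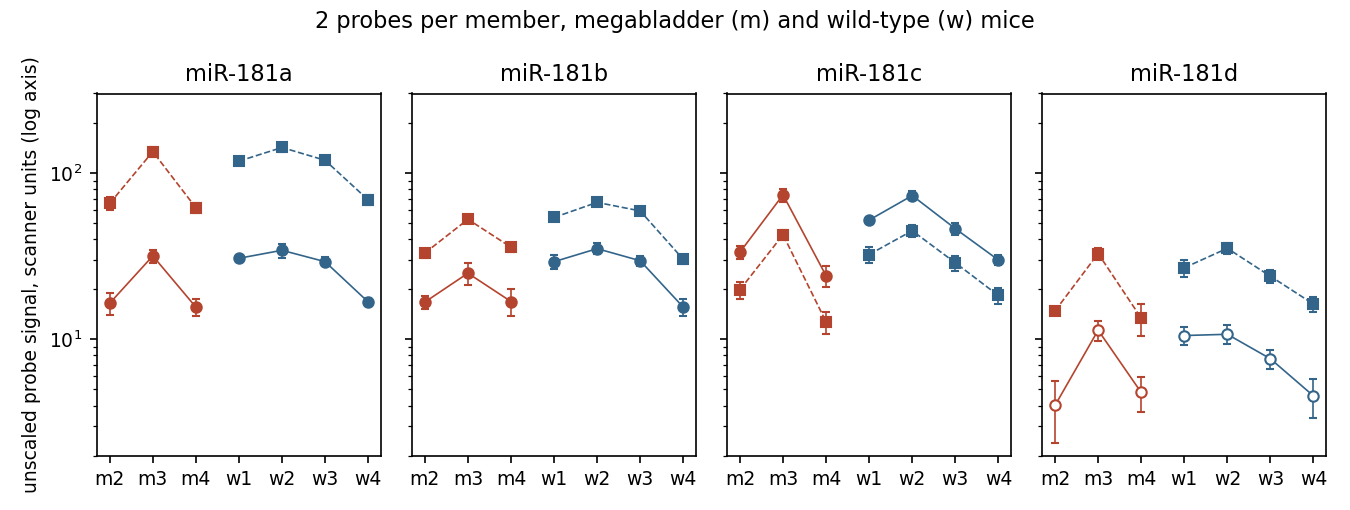
Unscaled signal in scanner units (log axis) of both probes of each miR-181 member on the arrays of megabladder mice 2 to 4 (m2 to m4, red) and wild-type mice 1 to 4 (w1 to w4, blue), as the mean over spots with bars of 1 SD over spots. Filled symbols are probes well above background on all 7 arrays. The 2 probes of a member run roughly in parallel over the mice, and the open symbols of miR-181d show its probe that passed on none.

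The dim probe of miR-181d had 4.02 to 11.4 unscaled units over the 7 mice and was left out of the level. For the other 3 members, probes of 1 microRNA kept a similar ratio on all arrays. The log2 ratio of 1 probe to the other spanned 0.14 over the 7 mice in miR-181a, 0.20 in miR-181b and 0.24 in miR-181c. These spans are a guide to how finely a ratio among these 3 members can be read. No such span exists for miR-181d, whose level rests on 1 probe. For miR-181c the probe ratio was 0.75, 0.80 and 0.92 in megabladder mice 2, 3 and 4, above the 0.68 to 0.71 of wild-type mice. Its mean was 0.82 in megabladder and 0.69 in wild-type kidneys. The means were -1.05 and -0.94 for miR-181b, and -2.02 and -2.01 for miR-181a. These genotype differences between probes were not tested. Levels of different members are not set against each other, since probes differ in brightness for reasons of their own. Probe sequences were not used here, and how far a probe also binds a paralog was not tested.

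In megabladder kidneys none of the 4 members differed from wild-type kidneys beyond the spread between mice. All 4 means were higher in megabladder kidneys, by 0.20 to 0.25 log2 units (1.15-fold to 1.19-fold), and in every member the values of the genotypes overlapped. The count past the threshold was 0 of 4 in limma (Benjamini-Hochberg adjusted p under 0.05 over 213 microRNAs), where 3.29% of all tested microRNAs passed, 2.82% as higher and 0.469% as lower. Without adjustment, 0 of 4 had a p under 0.05, where 23% of all did. The genotypes did not overlap for 22.1% of all tested microRNAs and for 0 of the 4 members. Positive differences are no mark of the family either, since 68.1% of all tested microRNAs had one. The family's median difference was 0.21, against 0.087 over all 213. In whole kidney, a change in the number of cells of a type and a change in RNA per cell cannot be told apart.

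miR-181a, the member with copies beside miR-181b on both chromosomes, had 42.3, 67.8 and 48.1 scaled units in megabladder mice 2, 3 and 4, against 53.2, 54.9, 41.2 and 33.8 units in wild-type mice 1 to 4. Megabladder mouse 3 was the highest of the 7 and wild-type mouse 4 the lowest, while megabladder mice 2 and 4 lay inside the wild-type range. On the log2 scale its level was 5.69 ± 0.35 (SD, n = 3) in megabladder and 5.49 ± 0.33 (SD, n = 4) in wild-type kidneys. The log2 difference was 0.20, with a 95% interval of -0.33 to 0.74 and an adjusted p of 0.702 in limma. As a ratio, that interval runs from 0.793-fold to 1.67-fold.

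miR-181b, the member tied to vascular inflammation, had 30.2, 37.6 and 38.1 scaled units in megabladder mice 2, 3 and 4, against 35.2, 38.0, 29.2 and 21.6 units in wild-type mice 1 to 4. Megabladder mice 3 and 4 were near wild-type mouse 2, megabladder mouse 2 was near wild-type mouse 3, and wild-type mouse 4 was again the lowest. The level was 5.13 ± 0.19 (SD, n = 3) in megabladder and 4.92 ± 0.36 (SD, n = 4) in wild-type kidneys, a log2 difference of 0.21 (95% interval -0.28 to 0.70, limma adjusted p = 0.651).

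miR-181c, from the cluster on chromosome 8, varied most among the mice. It had 33.2, 58.2 and 27.1 scaled units in megabladder mice 2, 3 and 4, against 36.3, 45.1, 25.5 and 23.3 units in wild-type mice 1 to 4. Megabladder mouse 3 was above every other mouse, and megabladder mice 2 and 4 lay between wild-type mice 1 and 3. The level was 5.22 ± 0.57 (SD, n = 3) in megabladder and 4.97 ± 0.44 (SD, n = 4) in wild-type kidneys, a log2 difference of 0.25 (95% interval -0.52 to 1.02, limma adjusted p = 0.744).

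miR-181d, its neighbour in that cluster, had 19.1, 34.0 and 20.8 scaled units in megabladder mice 2, 3 and 4, against 23.8, 27.7, 16.7 and 16.2 units in wild-type mice 1 to 4. The order of the mice was close to that of miR-181c, with megabladder mouse 3 highest and wild-type mice 3 and 4 lowest. The level was 4.57 ± 0.45 (SD, n = 3) in megabladder and 4.36 ± 0.38 (SD, n = 4) in wild-type kidneys, a log2 difference of 0.21 (95% interval -0.43 to 0.85, limma adjusted p = 0.744). All its values lay above the floor of 11.4 scaled units.

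**Figure D2:**
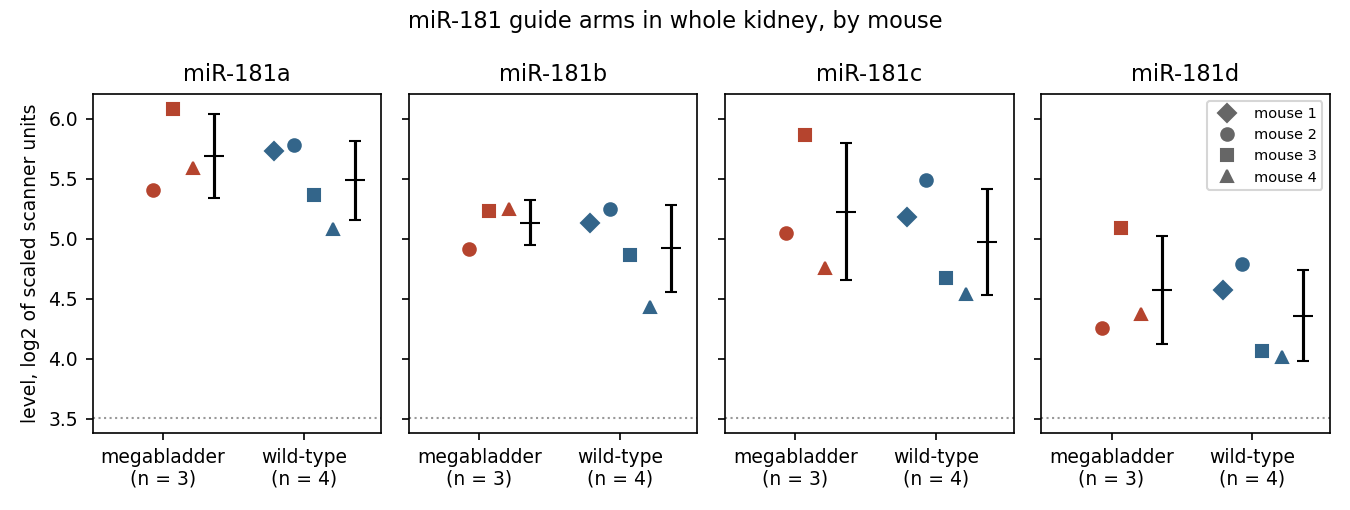
Level of each miR-181 guide arm (log2 of scaled scanner units) in megabladder mice (red) and wild-type mice (blue), 1 symbol per mouse, with the mean ± SD at the right of each group and the floor of 11.4 units as a dotted line. In all 4 panels the genotypes overlap and wild-type mouse 4 is lowest. Megabladder mouse 3 is highest for miR-181a, miR-181c and miR-181d. Heights of different panels are not comparable.

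Single mice moved these differences, and turned the sign of miR-181c and miR-181d but not of miR-181a or miR-181b. Without megabladder mouse 3, log2 differences were 0.0065 for miR-181a, 0.16 for miR-181b, -0.067 for miR-181c and -0.046 for miR-181d. Wild-type mice 3 and 4, the arrays that stood apart, had the lowest levels of the 7 in every member. Without both of them, the log2 differences were -0.064 for miR-181a, -0.057 for miR-181b, -0.11 for miR-181c and -0.11 for miR-181d, and none passed. The part of those arrays' general profile in the family's low values was not tested.

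The sign also depended on how arrays were scaled. The log2 differences of all 4 members were positive with the main scaling and with the median, at 0.045 to 0.095 for the median, and negative with the other scalings. They were -0.54 to -0.49 with the 75th percentile over all probes, -0.34 to -0.18 with quantiles and -0.41 to -0.36 unscaled. The median of all tested microRNAs moved as well. It was 0.087 with the main scaling, -0.62 with all probes, -0.061 with the median, -0.14 with quantiles and -0.49 unscaled. Relative to that median, the members stood at 0.077 to 0.17 by the 4 scalings that use 1 factor per array or none, and at -0.20 to -0.046 by quantiles. No member passed under any scaling.

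**Figure D3:**
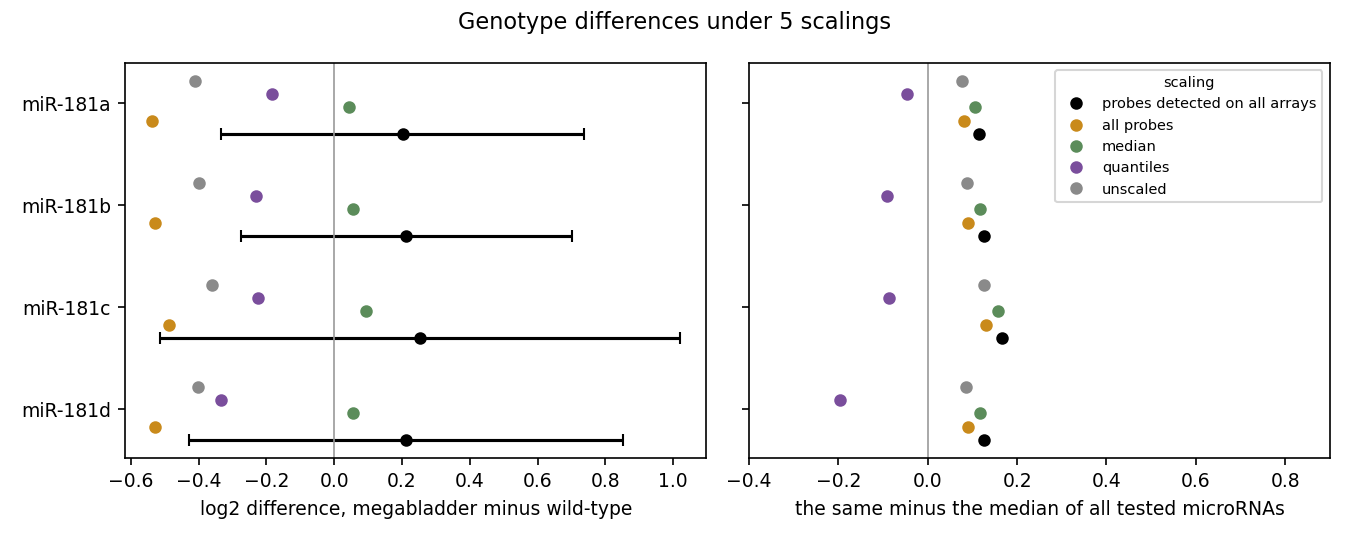
Left, log2 difference of each member, megabladder minus wild-type, under 5 scalings, with the limma 95% interval for the main scaling (black). Right, the same differences minus the median of all 213 tested microRNAs. On the left the colours lie on both sides of 0, and each main interval crosses 0. On the right all points lie within 0.20 of 0.

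The between-mouse spread, taken with the main scaling, was larger than the noise of the spots. With 1 array per mouse, this spread also holds differences between arrays, which spots of an array do not measure. The standard error of a level over its spots was 0.017 to 0.11 log2 units over all members and arrays. Between mice, the highest and lowest levels differed by 2.00-fold in miR-181a, 1.76-fold in miR-181b, 2.50-fold in miR-181c and 2.10-fold in miR-181d. Within the wild-type mice alone these ratios were 1.62, 1.76, 1.93 and 1.71, and within the megabladder mice 1.60, 1.26, 2.15 and 1.78.

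Ratios between 2 members on the same array do not depend on the scaling factor, apart from the floor and quantiles, and so ask directly whether paralogs changed unequally with genotype. In none of the 6 pairs did the genotypes differ, and in none were they without overlap. The change in log2 ratio was -0.011 for miR-181a over miR-181b, -0.050 for miR-181a over miR-181c and -0.0097 for miR-181a over miR-181d. It was -0.039 for miR-181b over miR-181c, 0.00085 for miR-181b over miR-181d and 0.040 for miR-181c over miR-181d. The 2-sided exact permutation p was 0.743 to 0.971 over the 6 pairs, and 0.971 for each after Benjamini-Hochberg adjustment over them. Missing the threshold does not show that paralogs changed alike. The limma 95% interval was narrowest for miR-181a over miR-181d (-0.34 to 0.32) and widest for miR-181b over miR-181c (-0.48 to 0.41). With single probes in place of their mean, the sign turned with the probe in every pair but miR-181a over miR-181d (-0.013 to -0.0067). The change was -0.067 to 0.046 for miR-181a over miR-181b and -0.12 to 0.017 over miR-181c. For miR-181b it was -0.16 to 0.078 over miR-181c and -0.053 to 0.055 over miR-181d. For miR-181c over miR-181d it was -0.023 to 0.10.

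Single mice differed most in 1 of the pairs. The log2 ratio of miR-181b to miR-181c was -0.13, -0.63 and 0.49 in megabladder mice 2, 3 and 4, against -0.05, -0.25, 0.20 and -0.11 in wild-type mice 1 to 4. Megabladder mice 3 and 4 thus lay outside the wild-type range on opposite sides. The SD was 0.56 (n = 3) in megabladder and 0.19 (n = 4) in wild-type kidneys, and the difference between these SDs was not tested. The gap of 1.12 between megabladder mice 4 and 3, a comparison chosen after its values were seen, held for each of the 4 combinations of single probes, at 1.05 to 1.18. These are the extremes of the 7 mice, so the gap says nothing of a difference between genotypes.

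Megabladder mouse 3 was also the lowest and mouse 4 the highest of the 7 in 2 other pairs. For miR-181b over miR-181d, megabladder mice 2, 3 and 4 had log2 ratios of 0.66, 0.15 and 0.87, against 0.56, 0.45, 0.81 and 0.42 in wild-type mice 1 to 4. For miR-181a over miR-181c, the log2 ratios were 0.35, 0.22 and 0.83 in megabladder mice 2, 3 and 4, against 0.55, 0.28, 0.69 and 0.54 in wild-type mice 1 to 4. Log2 ratios of miR-181a over miR-181b were 0.48, 0.85 and 0.34 in megabladder mice 2, 3 and 4, against 0.50 to 0.65 in wild-type mice. Those of miR-181c over miR-181d were 0.80, 0.77 and 0.38, against 0.53 to 0.70 in wild-type mice. In both of these pairs every megabladder mouse lay outside the wild-type range, but on both sides of it. By contrast, miR-181a over miR-181d stayed within 0.99 to 1.21 in megabladder and 0.99 to 1.30 in wild-type mice, the smallest span of the 6 pairs at 0.32.

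**Figure D4:**
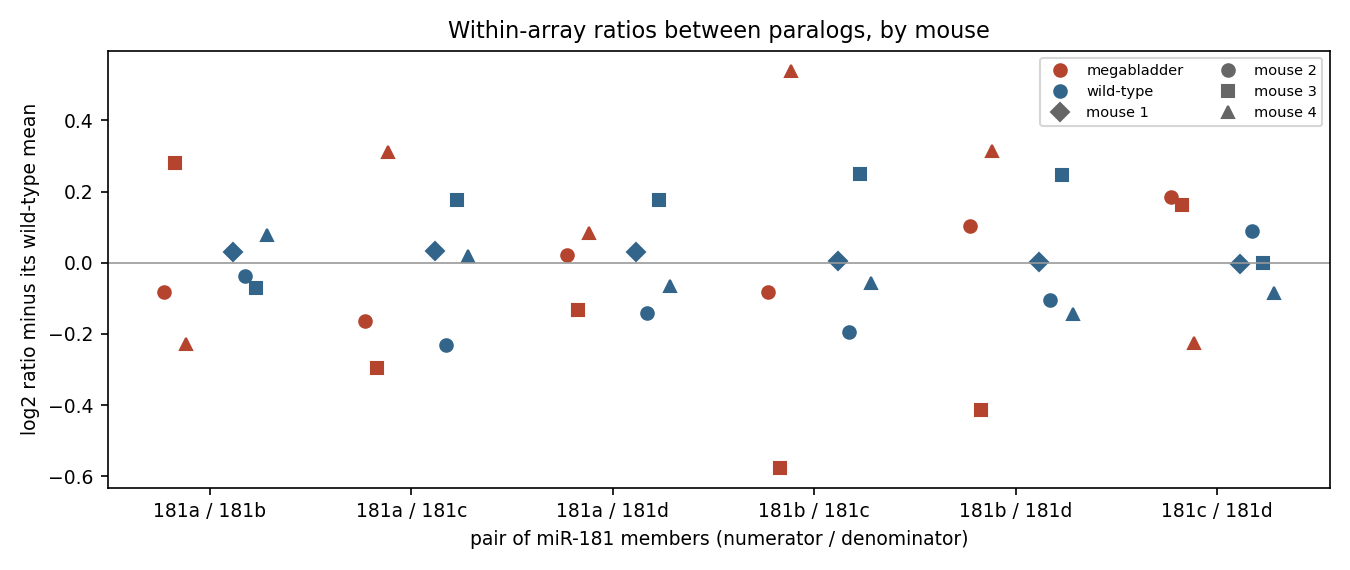
Within-array log2 ratio of each pair of miR-181 members, minus the mean of the wild-type mice, for megabladder mice (red) and wild-type mice (blue), with the symbol giving the mouse number. In each pair the ranges of the genotypes overlap. For miR-181a over miR-181b and for miR-181c over miR-181d, the megabladder mice lie on both sides of the wild-type mice. For miR-181b over miR-181c, megabladder mouse 3 lies lowest and megabladder mouse 4 highest of the 7 mice.

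The profiles of the members over the mice were alike to different degrees. Likeness was measured as the root mean square difference between log2 levels over the 7 mice after centring each microRNA on its own mean, so that smaller is more alike. The closest pair was miR-181a with miR-181d, at 0.11, which share no cluster and differ by 4 substitutions (A9U, C10U, C12U and A21G). The cluster neighbours miR-181c and miR-181d followed at 0.13, and miR-181a with miR-181b at 0.15. miR-181b and miR-181c were least alike, at 0.32. The other pairs were at 0.21 for miR-181a with miR-181c and 0.23 for miR-181b with miR-181d. No order is claimed among the 3 closest pairs, of which 2 are cluster neighbours.

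Among all 212 other tested microRNAs, the nearest paralog ranked 1st for miR-181d, 2nd for miR-181c, 3rd for miR-181a and 4th for miR-181b. The 3 nearest outside the family were the following. For miR-181a they were miR-322 (0.085), miR-342-3p (0.10) and miR-99b (0.13), and for miR-181b miR-322 (0.12), miR-301a (0.12) and miR-503 (0.13). For miR-181c they were miR-148a (0.12), miR-199b* (0.21) and miR-342-3p (0.22), and for miR-181d miR-342-3p (0.13), miR-322 (0.15) and miR-130a (0.16). The median distance to all 209 tested microRNAs outside the family was 0.37 for miR-181a, 0.33 for miR-181b, 0.50 for miR-181c and 0.42 for miR-181d. All distances are over 7 arrays and share their scaling factors. None of these neighbours passed the genotype test: their log2 differences were 0.19 for miR-301a to 0.59 for miR-199b*, with limma adjusted p from 0.214 to 0.667.

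**Figure D5:**
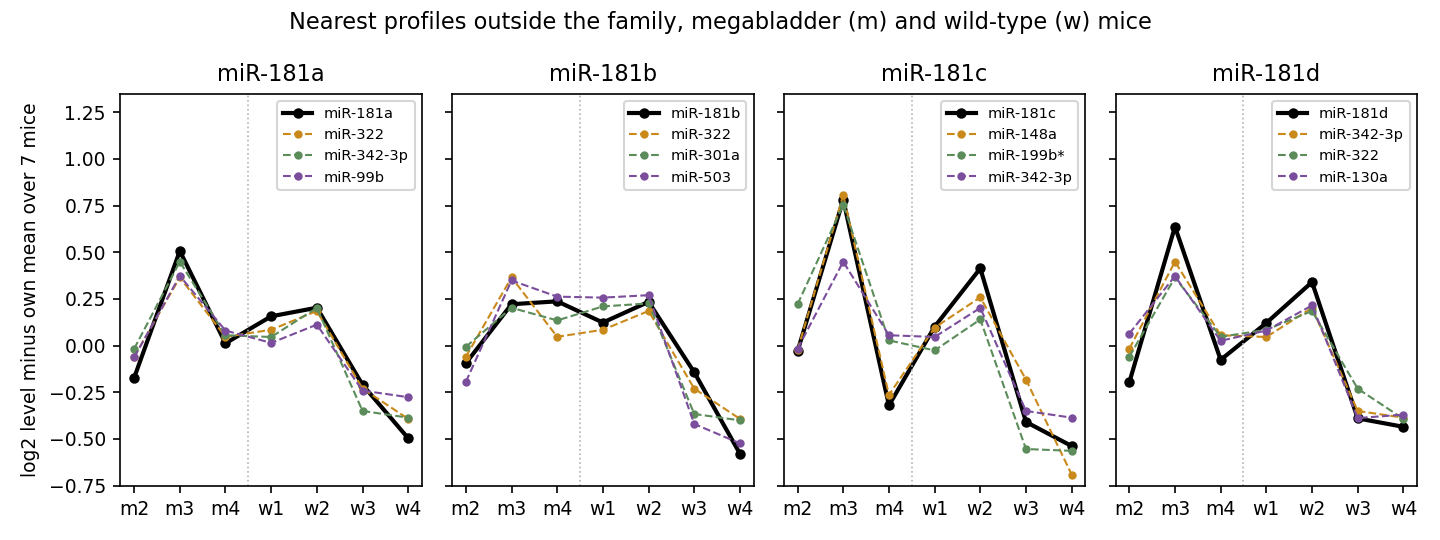
Log2 level minus its own mean over the 7 mice for each miR-181 member (black) and the 3 tested microRNAs outside the family with the nearest profiles (coloured, dashed), in megabladder mice 2 to 4 (m2 to m4) and wild-type mice 1 to 4 (w1 to w4). Every profile lies above its mean in megabladder mouse 3 and below it in wild-type mice 3 and 4.

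Summed levels of markers of the cell types for which miR-181 is known overlapped between genotypes. Such sums mostly follow the brightest microRNAs of a list. Among the endothelial ones, miR-126-3p had a mean log2 level of 10.6 in wild-type kidneys, and the others 4.34 to 6.95. The 5 tested of 7 leukocyte microRNAs summed to 209.6 to 254.0 scaled units in megabladder and 212.8 to 240.8 units in wild-type kidneys. Their median log2 difference was -0.15, between miR-155 at -0.47 and miR-342-3p at 0.28, and 0 passed in either direction. The 4 endothelial microRNAs summed to 1463 to 1835 units in megabladder and 1699 to 1769 units in wild-type kidneys. Their median was -0.076, between miR-126-5p at -0.23 and miR-222 at -0.019, and 0 of 4 passed. The genotypes did not overlap for miR-126-5p. Of 4 neuronal microRNAs, 2 were tested, at 0.11 for miR-128 and -0.12 for miR-219, and summed to 30.0 to 40.1 units in megabladder and 33.3 to 39.0 units in wild-type kidneys. The part of these cell types in the miR-181 levels was not tested.

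Of the remaining marker lists, all 8 kidney tubule microRNAs had a median log2 difference of -0.046, from miR-10b at -0.11 to miR-204 at 0.50, and 0 passed. The 3 erythroid microRNAs ranged from 0.045 for miR-451 to 0.32 for miR-486, the 2 smooth muscle microRNAs from 0.091 for miR-143 to 0.24 for miR-145, and the 3 urothelial microRNAs from -0.17 for miR-203 to 1.23 for miR-205, with 0 past the test in each list. None of the striated muscle or the liver and pancreas microRNAs was detected often enough to be tested.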

How the data were processed

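Per the labels' protocols, RNA came from frozen kidneys, and 100 ng per mouse was given the Cy3 dye. Per the file headers, the deposited spot intensity values come from Agilent Feature Extraction, which the submitters' processing notes give as version 10.7.3.1. They are background-subtracted within an array and unscaled between arrays. The authors' deposited value table holds intensity values too, with a floor of 20 and its scaling not given in the sources used here. It served as an alternative, for the 130 of 213 tested microRNAs whose values lay within 1 log2 unit of their own array signal on all arrays, miR-181a, miR-181b and miR-181c among them. All columns of that table had the same maximum, 9741, as scaling by quantiles would give. The deposited values may thus not be separate from the alternative with quantiles.

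Control spots were dropped, as were outliers (3.45% to 3.77% of spots). Saturation was seen on no array. Each probe's mean signal was divided by a factor per array, the 75th percentile of 292 probes that every array detected. Values under 11.4 units, a floor taken from the 1st percentile of well-detected probes, were raised to it before the log2 step. A probe was well above background where at least 0.5 of its spots were. A level is the mean over a microRNA's probes above background on at least 3 arrays. Genotypes were compared, megabladder minus wild-type, with lmFit and eBayes in limma 3.58.1 (R 4.3.3), and within-array ratios by exact permutation over 35 splits. The fit was tested on simulated data. No 2 arrays were alike enough to be 1 sample deposited again: their spots differed by a median of 3.54 standard errors or more. The labels name each array for a mouse of its own. The number of arrays limits the precision.

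Named were all miR-181 arms, the 3 nearest profiles per member and the extremes of each marker list. Members and lists were chosen with earlier results of these data known. Sequences of all 4 guide arms and both passenger arms matched RefSeq (GRCm38.p6). Alternatives covered scaling, signal, background, filter, probe choice, floor, test, block and single mice. Normexp (offset 50) used median spot signals, since the files hold no mean. Figures were drawn with matplotlib 3.10.9.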

Additional observations from a re-analysis of the deposited data

How the results depend on the processing

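No miR-181 member passed under any of the 21 alternatives (20 for miR-181d, whose deposited values were not within 1 log2 unit of its own array signal and were left out), with limma adjusted p of 0.107 to 0.983, and no paralog contrast passed after adjustment. For those contrasts, leaving out mice or pairing them could not pass whatever the data: the smallest exact permutation p possible is 0.0667 without 1 megabladder mouse, 0.10 without 1 wild-type mouse or without both wild-type mice 3 and 4, and 0.25 with the block. Signs were not stable. With scaling by all probes the log2 differences were -0.54, -0.53, -0.49 and -0.53 for miR-181a, miR-181b, miR-181c and miR-181d, with quantiles -0.18, -0.23, -0.23 and -0.34, unscaled -0.41, -0.40, -0.36 and -0.40, with normexp -0.037, -0.065, -0.040 and -0.075, and without both wild-type mice 3 and 4 -0.064, -0.057, -0.11 and -0.11. The authors' deposited values gave -0.059, -0.11 and -0.11 for the first 3. Leaving out single mice gave 0.0065 to 0.35, 0.050 to 0.32, -0.067 to 0.48 and -0.046 to 0.37.

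Paralog contrasts changed sign too. For miR-181a over miR-181b, miR-181c and miR-181d they were 0.046, 0.041 and 0.15 with quantiles, and 0.028, 0.0025 and 0.038 with normexp. miR-181a over miR-181d was 0.16 with total gene signal and 0.088 with no filter, which adds its dim probe. The deposited values gave 0.051 for miR-181a over miR-181b and 0.049 over miR-181c. Without both wild-type mice 3 and 4, miR-181a over miR-181c was 0.049, miR-181a over miR-181d 0.045, miR-181b over miR-181c 0.056 and miR-181c over miR-181d -0.0035. Leaving out single mice gave -0.16 to 0.099 for miR-181a over miR-181b, -0.23 to 0.073 over miR-181c and -0.057 to 0.052 over miR-181d, -0.33 to 0.23 for miR-181b over miR-181c and -0.16 to 0.21 over miR-181d, and -0.032 to 0.17 for miR-181c over miR-181d. Where fewer mice entered, the loss of samples is part of the alternative, and otherwise the cause was not tested.

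With the mouse number as a replicate block (mice 2 to 4) the differences were 0.28, 0.28, 0.32 and 0.28, miR-181a over miR-181d was 0.00082, and no call on the family changed. The numbers name mice only: deviations of same-numbered mice correlated at -0.21, 0.0066 and 0.21 for mice 2, 3 and 4, and mice 2 and 3 did not correlate best with their own number. Over all 213 microRNAs the block called 28 in place of 7. The count of all calls was 6 higher and 1 lower in the main scaling, 1 and 1 with the median, 0 with all probes and quantiles, and 1 and 70 unscaled. It was 0 with total gene signal, no filter and a floor of 1, 1 with normexp, the deposited values and without wild-type mice 3 and 4, 4 with a probe required on all arrays, and 0 to 19 without single mice. Where limma called 0, 24 to 102 microRNAs had an unadjusted p under 0.05.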

Other observations

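In the authors' deposited table, the processed intensities of miR-181a were 83, 138 and 88 in megabladder mice 2, 3 and 4, against 106, 124, 103 and 88 in wild-type mice 1 to 4. Those of miR-181b in the authors' deposited table were 54, 67 and 62 in the megabladder mice, against 62, 68, 72 and 61 in the wild-type mice. For miR-181c the authors' deposited table had 59, 84 and 51 in the megabladder mice, against 64, 81, 65 and 64 in the wild-type mice. For miR-181d the authors' deposited table had 30, 48 and 29 in the megabladder mice, against 40, 43, 40 and 35 in the wild-type mice. In the authors' deposited table megabladder mouse 3 was highest for miR-181a, miR-181c and miR-181d, as with the scaling used in the report. The low place of wild-type mouse 3 was not seen there, and it was highest for miR-181b at 72. Wild-type mouse 4 was still lowest of the wild-type mice for miR-181a, miR-181b and miR-181d, at 88, 61 and 35. For miR-181c it was level with wild-type mouse 1 at 64. The lowest values over both genotypes were in megabladder mice, at 83 for miR-181a, 54 for miR-181b, 51 for miR-181c and 29 for miR-181d.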
